A study of Mus musculus with 12 samples.

Results

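Mouse embryonic stem cells contain multicopy genes that are otherwise transcribed mainly in the embryo at the 2-cell stage, and 10 of these copies were chosen by name for description. They were the Usp17l-type deubiquitinase genes Dub1, Dub1a, Dub2a, Dub3 and Usp17l5, the Eif1a-like genes Gm5662 and BB287469, Tmem92-ps, and the 2 genes Tcstv1 and Tcstv3. The first 8 were matched by symbol among 26061 genes, and Tcstv1 and Tcstv3 were not analysed here. All 8 were among the 14487 genes that passed a filter on low values, a mean at least 0.5 log2 units above the lowest value of the table.

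The cells were of the E14 line, of 129/Ola background, and grew on gelatin without feeders. The 4 groups were 2i knockdown, 2i control, serum knockdown and serum control, with 3 libraries each. In 2i (N2, B27, LIF and the inhibitors PD0325901 and CHIR99021) the submitters call the cells naive, and in serum with LIF they call them primed. Every group, controls included, received a pLKO.1 lentivirus and was selected with puromycin at 1 µg/ml from 48 hours after infection, and cells were collected after 3 days of selection. The knockdown virus carried an shRNA against Setdb1 and the control virus a non-targeting one (shScr). The labels describe no rescue, so an effect of losing Setdb1 and another effect of this shRNA cannot be told apart. Nor do they say that replicates were separate cultures, so p-values measure the spread between these samples only.

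A small and changing fraction of embryonic stem cells passes through a state in which genes of the 2-cell embryo and the retrovirus MERVL are transcribed together. The transcription factor Dux and the proteins Dppa2 and Dppa4 are known to turn that programme on, and the Zscan4 proteins are among its best known products. SETDB1, an enzyme that methylates lysine 9 of histone H3, acts with TRIM28 as a repressor of retroviral elements in these cells. Usp17l proteins are deubiquitinases, first found as cytokine-induced genes of blood cells. Eif1a-like genes resemble the gene of the translation initiation factor eIF1A. Tmem92-ps is annotated as the transmembrane protein gene Tmem92 in the GRCm38 assembly.

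Levels are given as normalised reads, which are whole reads recovered from the deposited log2 values and scaled for library size. On this scale all 8 copies had their lowest mean in 2i control cells. Their means there were between 0.909% (Dub3) and 2.88% (BB287469) of the serum control mean. With the Setdb1 shRNA in 2i the means were 29.4% (Gm5662) to 76.1% (Dub1a) of the serum control mean. With the same shRNA in serum they were 70.9% (Gm5662) to 259% (Dub3) of it. These shares depend on single libraries. Without serum control replicate 2, Gm5662 was at 53.7% in 2i knockdown and at 129% in serum knockdown cells, which turns the direction in serum. Leaving out any 1 library, the 2i control means were at most 4.87% (BB287469), the 2i knockdown means 17.3% (Tmem92-ps) to 119% (Dub1a) and the serum knockdown means 50.1% (Usp17l5) to 328% (Dub3).

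The 5 Usp17l-type genes lie on chromosome 7 and the 2 Eif1a-like genes on chromosome 12. Among the Usp17l-type genes, the annotated coding sequences of Dub2a and Usp17l5 were the closest pair, at 98.4% identity, and those of Dub1a and Usp17l5 the most distant, at 79.6%. The coding sequences of Gm5662 and BB287469, each 432 bases long, were 97.7% identical. Promoter windows of 300 bases, from 250 before to 50 after the annotated start, were at hand for 5 of the 8 copies. They are printed from RefSeq (GRCm38.p6) because these copies varied together between groups and 4 of the 5 are near relatives in sequence. The capitals mark matches, on either strand, to CCAAT, a box of many promoters, to CACACCC, a box that factors of the Sp and Krüppel-like families can bind, and to TATAAA, the TATA box.

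Dub1, chr7:104856766-104857065, plus strand: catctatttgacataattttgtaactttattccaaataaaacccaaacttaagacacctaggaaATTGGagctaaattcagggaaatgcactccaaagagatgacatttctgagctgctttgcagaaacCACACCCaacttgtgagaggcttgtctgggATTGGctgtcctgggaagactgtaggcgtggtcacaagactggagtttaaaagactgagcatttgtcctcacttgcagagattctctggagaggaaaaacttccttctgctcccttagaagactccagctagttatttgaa

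Dub1a, chr7:104842534-104842833, minus strand: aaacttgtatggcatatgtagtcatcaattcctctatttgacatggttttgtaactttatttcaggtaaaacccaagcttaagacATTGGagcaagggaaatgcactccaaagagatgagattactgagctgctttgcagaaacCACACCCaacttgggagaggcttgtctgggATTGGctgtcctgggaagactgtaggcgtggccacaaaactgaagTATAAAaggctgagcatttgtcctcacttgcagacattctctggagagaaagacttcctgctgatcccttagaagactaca

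Dub2a, chr7:103252456-103252755, minus strand: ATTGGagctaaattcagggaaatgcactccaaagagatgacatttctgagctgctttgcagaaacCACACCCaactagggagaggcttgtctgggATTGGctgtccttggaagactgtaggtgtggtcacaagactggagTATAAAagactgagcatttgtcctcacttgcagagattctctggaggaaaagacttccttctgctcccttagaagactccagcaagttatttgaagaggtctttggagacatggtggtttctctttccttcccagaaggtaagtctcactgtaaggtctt

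Usp17l5, chr7:103416446-103416745, plus strand: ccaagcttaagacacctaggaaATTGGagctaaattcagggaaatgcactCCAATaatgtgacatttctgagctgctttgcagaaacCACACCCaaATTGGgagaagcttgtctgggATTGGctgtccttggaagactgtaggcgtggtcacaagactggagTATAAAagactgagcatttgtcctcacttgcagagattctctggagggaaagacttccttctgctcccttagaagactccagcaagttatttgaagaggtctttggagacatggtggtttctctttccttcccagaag

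BB287469, chr12:87816327-87816626, plus strand: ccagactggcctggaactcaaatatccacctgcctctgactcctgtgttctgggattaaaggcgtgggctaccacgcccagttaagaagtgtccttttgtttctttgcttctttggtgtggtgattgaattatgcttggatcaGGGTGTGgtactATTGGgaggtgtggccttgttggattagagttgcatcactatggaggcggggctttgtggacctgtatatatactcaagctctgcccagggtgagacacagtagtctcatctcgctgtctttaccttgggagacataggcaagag

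All 5 windows held CCAAT and CACACCC, which 37.4% and 7.95% of 32851 mouse promoter windows of the same length hold. TATAAA was found in the windows of Dub1a, Dub2a and Usp17l5, against 13.6% of all windows. The letters TGCACAC, which ZSCAN4C is known to bind when repeated, and GATTNAATC, part of a Dux motif, were in none of the 5. They are in 4.4% and 0.268% of all windows. In the best overlapping alignment of 2 windows, the 4 Usp17l-type windows were 83.3 to 96.8% identical to each other and 53.6 to 55.7% identical to that of BB287469. A match describes letters only.

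Depth and composition varied between libraries, which held 4821181 to 15509401 reads in genes. The lowest total was that of 2i knockdown replicate 3. Structural RNA and tRNA took 15.3 to 69.3% of repeat reads, with 19.8, 55.4 and 69.3% in 2i knockdown replicates 1, 2 and 3. The target of the shRNA fell in both media. Setdb1 had 837, 610 and 340 normalised reads in 2i knockdown libraries, against 3607, 2724 and 2253 in 2i control libraries (log2 change −2.24, limma adjusted p = 0.00173). It had 418, 379 and 409 in serum knockdown libraries, against 2959, 2237 and 1587 in serum control libraries (log2 change −2.33, limma adjusted p = 0.00219). The 10 stem cell markers listed were all detected and summed to 44542 to 73123 normalised reads in the 2i knockdown, 50132 to 70462 in the 2i control, 47203 to 83336 in the serum knockdown and 61150 to 78319 in the serum control.

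**Figure D1:**
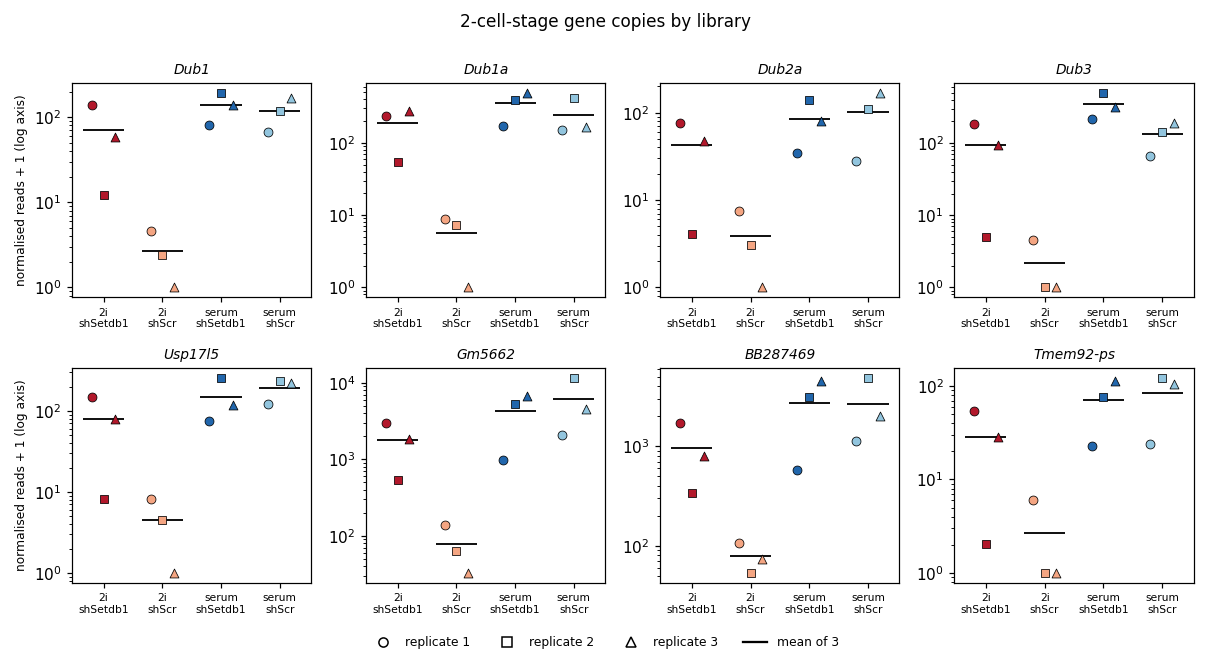
Normalised reads plus 1 (log axis) of each of the 8 gene copies in every library. Columns are the 4 groups, symbols the replicate numbers and bars the mean of 3 libraries. In each panel the mean of the 2i control libraries is the lowest, and 2i knockdown replicate 2 lies below the other two of its group.

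Dub1 is the first gene of the family, described in mouse as induced by interleukin-3. It had 138, 11.2 and 58.1 normalised reads in 2i knockdown replicates 1 to 3, against 3.6, 1.4 and 0 in the 2i controls. In serum it had 79.9, 194 and 140.0 in knockdown libraries, against 66.2, 118 and 167 in control libraries. In 2i every knockdown library was above every control library, while in serum the groups overlapped.

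Dub1a, a neighbouring copy, had 231, 53.8 and 274 normalised reads in 2i knockdown libraries, against 7.9, 6.2 and 0 in 2i control libraries. Its serum values were 170, 392 and 494 in knockdown libraries, against 150, 421 and 164 in control libraries. Every 2i knockdown library lay above every 2i control library, and in serum the groups overlapped.

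Dub2a had 76.1, 3.0 and 47.0 normalised reads in 2i knockdown libraries, against 6.5, 2.1 and 0 in 2i control libraries. In serum the values were 33.5, 141 and 79.6 with knockdown, against 27.1, 110 and 169 in controls. The groups overlapped in both media, and in 2i knockdown replicate 2 lay below control replicate 1.

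Dub3 had 185, 4.1 and 94.0 normalised reads in 2i knockdown libraries, against 3.6, 0 and 0 in 2i control libraries. Its serum values were 213, 501 and 315 in knockdown libraries, against 65.1, 144 and 188 in control libraries. It was the one copy whose knockdown libraries all lay above the controls in both media, in 2i by a margin of less than 1 normalised read for the closest pair of libraries.

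Usp17l5 had 149, 7.1 and 77.4 normalised reads in 2i knockdown libraries, against 7.2, 3.4 and 0 in 2i control libraries. In serum it had 74.5, 254 and 116 with knockdown, against 119, 230 and 221 in controls. The 2i groups overlapped by replicate 2 of the knockdown alone, and the serum groups overlapped as well.

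Gm5662, an Eif1a-like gene, had 2992, 528 and 1833 normalised reads in 2i knockdown libraries, against 137, 61.4 and 31.7 in 2i control libraries. Its serum values were 977, 5218 and 6699 in knockdown libraries, against 2089, 11546 and 4555 in control libraries. In 2i all 3 knockdown libraries were above all 3 controls, and in serum the lowest and the highest library were a knockdown and a control.

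BB287469, the other Eif1a-like gene, had 1721, 340 and 802 normalised reads in 2i knockdown libraries, against 106, 52.4 and 72.8 in 2i control libraries. In serum it had 578, 3157 and 4507 with knockdown, against 1126, 4859 and 2039 in controls. It had the same pattern as Gm5662, with no overlap in 2i and overlap in serum.

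Tmem92-ps had 53.0, 1.0 and 27.7 normalised reads in 2i knockdown libraries, against 5.1, 0 and 0 in 2i control libraries. Its serum values were 22.1, 75 and 111 in knockdown libraries, against 22.8, 121 and 105 in control libraries. The groups overlapped in both media, in 2i by knockdown replicate 2, which lay below control replicate 1.

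Few reads stand behind the 2i control values. Over its 3 libraries that group held 5 reads of Dub3, 7 of Dub1, 7 of Tmem92-ps, 12 of Dub2a, 15 of Usp17l5 and 20 of Dub1a, against 285 of BB287469 and 305 of Gm5662. Replicate 3 had 0 reads for 6 of the 8 copies and replicate 2 for 2 of them. A count of 0 allows up to 3 reads, which is 3.52 normalised reads in replicate 3 and 2.07 in replicate 2, for counting error only.

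The comparison of 2i with serum in control cells asked how the level of these genes differs between media without the Setdb1 shRNA. All 8 copies fell in 2i control cells relative to serum control cells at a limma p under 0.05 after Benjamini-Hochberg adjustment over all genes, the threshold used throughout, as did 1.88% of the 14487 genes tested. Their libraries did not overlap, which held for 12.8% of genes in the same direction. Because 5 of the 8 copies lay within 0.5 log2 units of the lowest value of the table in 2i control cells, and passed the low-value filter through the other groups, this count is a description. In bulk RNA, fewer cells in the 2-cell-like state and less RNA per such cell cannot be told apart.

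Gm5662 averaged 76.5 ± 54.0 normalised reads in 2i control cells and 6063 ± 4906 in serum control cells (SD, n = 3 each, as throughout), 79.2-fold lower in 2i. On the deposited log2 scale the change was −5.50 (SE 0.74, limma adjusted p = 0.00142). BB287469 averaged 77.1 ± 27.1 in 2i control cells and 2674 ± 1946 in serum control cells, 34.7-fold lower. Its log2 change was −4.32 (SE 0.68, limma adjusted p = 0.00367). Of all libraries, serum control replicate 2 held the most of both genes. Without it the 2 genes were 43.4-fold and 20.5-fold lower.

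The Usp17l-type genes changed by −3.05 (Dub1a, SE 0.51, adjusted p = 0.00431), −2.90 (Usp17l5, SE 0.52, adjusted p = 0.00619), −2.71 (Dub3, SE 0.56, adjusted p = 0.0145), −2.48 (Dub1, SE 0.46, adjusted p = 0.00774) and −2.12 (Dub2a, SE 0.53, adjusted p = 0.0376) on the log2 scale. In normalised reads these genes were 35.7-fold (Dub2a) to 110-fold (Dub3) lower in 2i, and the log2 scale understates such changes when reads are few. Tmem92-ps changed by −2.11 (SE 0.51, adjusted p = 0.0322) and was 49.1-fold lower. A count model (voom) on recovered reads called 3 of the 8, namely Dub1, Gm5662 and BB287469, and 2.44% of all genes in either direction. Testing every gene without the filter called Gm5662 alone of the 8, and 0.549% of genes. Leaving out 1 of serum control replicates 2 and 3 or 2i control replicates 2 and 3 left 5 of 8, with 1.18 to 3.22% of genes.

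**Figure D2:**
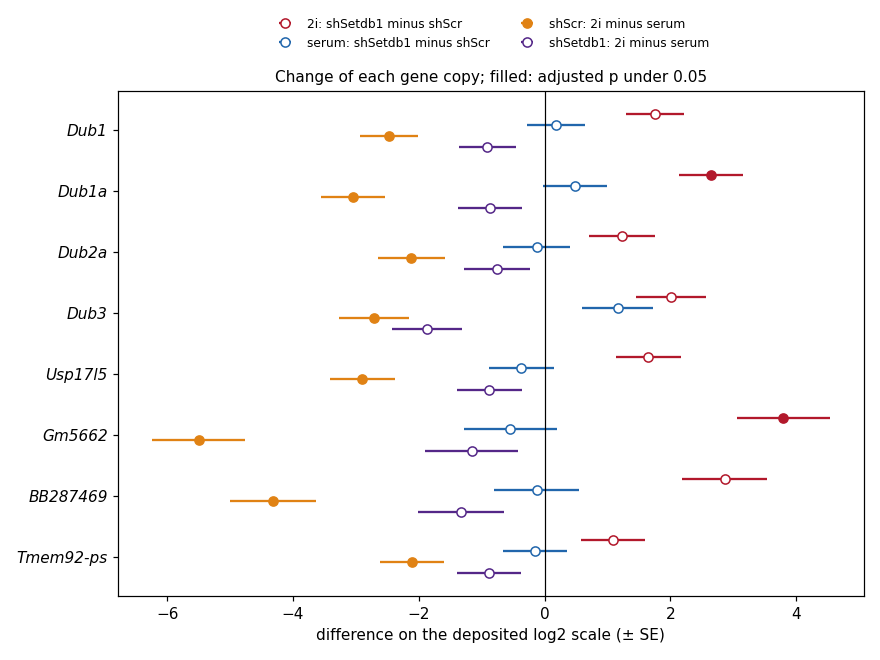
Difference of each gene copy on the deposited log2 scale with its standard error, for 2 knockdown comparisons and 2 medium comparisons. Filled points have a limma adjusted p under 0.05: all 8 copies for 2i minus serum in shScr cells, and Dub1a and Gm5662 for shSetdb1 minus shScr in 2i.

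Knockdown against control in 2i asked whether the copies that were low in 2i rose with the Setdb1 shRNA. Dub1a and Gm5662 rose, 2 of 8 copies, where 1.21% of all genes tested rose. All 8 differences were above 0, with 7 at an unadjusted p under 0.05, as were 1067 of all genes, a median of 1.88 and a range of 1.08 to 3.79, beside a median of 0.01 over all genes tested, which is again a description. In 5 of 8 copies no knockdown library overlapped a control library, as in 6.33% of genes in that direction.

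Gm5662 averaged 1784 ± 1233 normalised reads in 2i knockdown cells and 76.5 ± 54.0 in 2i control cells, 23.3-fold higher. Its log2 change was 3.79 (SE 0.74, limma adjusted p = 0.0158). Dub1a averaged 186 ± 117 in 2i knockdown cells and 4.72 ± 4.18 in 2i control cells, 39.5-fold higher. Its log2 change was 2.65 (SE 0.51, limma adjusted p = 0.0136). Leaving out 1 library at a time, the fold ranged from 15.4 to 38.3 for Gm5662 and from 26.3 to 60.0 for Dub1a.

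The other 6 copies did not pass. BB287469 had 954 ± 703 in 2i knockdown cells and 77.1 ± 27.1 in 2i control cells (log2 change 2.86, SE 0.68, limma adjusted p = 0.0578). Dub3 had 94.4 ± 90.6 in 2i knockdown cells and 1.2 ± 2.08 in 2i control cells (log2 change 2.01, SE 0.56, limma adjusted p = 0.137). The log2 changes of Dub1, Usp17l5, Dub2a and Tmem92-ps were 1.75, 1.65, 1.23 and 1.08, with limma adjusted p between 0.0992 and 0.684.

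The 3 knockdown libraries in 2i did not contribute alike. Replicate 2 was the lowest of the 3 for all 8 copies and replicate 1 the highest for 7, the exception being Dub1a. Summed over the copies, replicates 1, 2 and 3 held 5545, 948 and 3213 normalised reads in the 2i knockdown, against 277, 127 and 104 in the 2i control. In brackets below is the share of all genes called in either direction, which was 1.27% with all 12 libraries. Without knockdown replicate 2, 6 of 8 copies passed (1.19%), and without control replicate 2 Dub1a alone passed (0.766%). Without knockdown replicate 3 (0.718%) or control replicate 3 (0.884%) none did. Without knockdown replicate 1 the 2 calls remained, Dub1a and Gm5662 (1.75%). With the share of structural RNA as a covariate, 5 of 8 passed (2.6%). With a count model on recovered reads (0.745%) or without the low-value filter (0.399%) none passed.

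The same shRNA in serum asked whether these genes respond where they are already transcribed. None of the 8 copies passed in limma, none had an unadjusted p under 0.05, and voom called 0. Of all genes tested, 0.601% rose and 738 genes had an unadjusted p under 0.05. The copies had a median log2 change of −0.13, beside 0 for all genes, and ranged from −0.55 (Gm5662) to 1.16 (Dub3).

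Dub3 averaged 343 ± 146 normalised reads in serum knockdown cells and 132 ± 62.3 in serum control cells, 2.59-fold higher. Its log2 change was 1.16 (SE 0.56, limma adjusted p = 1.00). It was the 1 copy of 8 without overlap, where 6.12% of genes had higher knockdown libraries without overlap. In serum the libraries spread widely within a group. Replicate 1 was the lowest of its group for all 8 copies in both the knockdown and the control, with sums of 2148 and 3665 normalised reads. The sums of replicates 2 and 3 were 9931 and 12462 in the knockdown, against 17549 and 7608 in the control.

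The test of the difference between the knockdown changes (2i minus serum) called 0 of 8 copies and 0 of all genes (0%) in limma, with 404 genes at an unadjusted p under 0.05, and voom called 0. The copies had differences of 0.85 (Dub3) to 4.34 (Gm5662, SE 1.05), a median of 1.80, and 5 had an unadjusted p under 0.05. With the replicate number as a block within each medium, Gm5662 alone of the 8 passed (difference 4.34, SE 0.55, limma adjusted p = 0.0202). In that fit 0.0138% of all genes were called. Whether the numbers pair samples in either medium is not known. In the fit without the block, no response is shown to be larger in 2i than in serum.

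Between the media, knockdown cells were compared in the same way. None of the 8 copies was lower in 2i knockdown than in serum knockdown cells by limma, where 1.6% of genes were, and voom called 0. The log2 changes were −1.87 (Dub3) to −0.76 (Dub2a), with a median of −0.90 and adjusted p of 0.0808 to 0.475. The 1 copy with an unadjusted p under 0.05 was Dub3, among 2683 genes. Dub3 was also the 1 copy without overlap, with 94.4 ± 90.6 normalised reads in 2i knockdown cells and 343 ± 146 in serum knockdown cells, where 10.1% of genes were lower without overlap. A p that misses the threshold does not show that the levels were alike.

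Ranked by mean, Dub1, Dub1a, Dub3 and BB287469 stood highest in serum knockdown, then serum control, 2i knockdown and 2i control. The other 4 copies stood highest in serum control, then serum knockdown, 2i knockdown and 2i control. Neighbours in these orders overlapped between libraries, apart from 2i knockdown over 2i control for 5 copies and serum knockdown over serum control for Dub3.

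MERVL, the retrovirus transcribed with these genes in the 2-cell embryo, was read from the repeat table. MERVL-int, its internal part, had 88703, 7284 and 19654 normalised reads in 2i knockdown libraries, against 6636, 5193 and 2285 in 2i control libraries (log2 change 2.44, SE 0.66, limma adjusted p = 0.0271). In serum it had 59424, 120604 and 44884 in knockdown libraries, against 91524, 134111 and 93601 in control libraries (log2 change −0.61, SE 0.66, adjusted p = 0.924). The 2i groups did not overlap, although knockdown replicate 2 was close to the highest control.

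MERVL-int was 22.6-fold lower in 2i control than in serum control cells (log2 change −4.60, SE 0.66, limma adjusted p = 0.00349). Its long terminal repeat MT2_Mm had 21226, 2937 and 5186 normalised reads in 2i knockdown libraries, against 2810, 2445 and 1673 in 2i control libraries (log2 change 1.60, SE 0.56, adjusted p = 0.088). Without knockdown replicate 2, MT2_Mm passed (log2 change 2.21, SE 0.54, limma adjusted p = 0.0159). The fold of MERVL-int in 2i was 8.19 and became 2.86 without knockdown replicate 1, and MERVL-int did not pass without that library or without control replicate 2 or 3. Of the 7 MERVL and MT2 families tested, 5 fell in 2i control relative to serum control cells, where 16.6% of 1097 repeat families fell. Against the 2i control, 2 rose with the shRNA in 2i, MERVL-int and MT2C_Mm, where 10.4% of families rose.

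**Figure D3:**
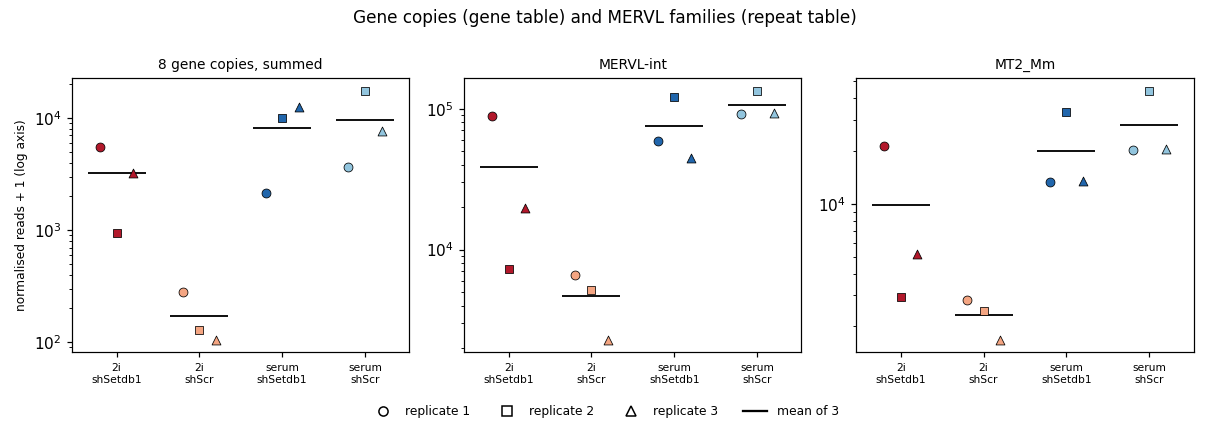
Normalised reads plus 1 (log axis) per library of the 8 gene copies summed, of MERVL-int and of MT2_Mm, with bars at the mean of 3 libraries. The 2 tables have size factors of their own, so levels are compared within a panel. In all 3 panels 2i knockdown replicate 1 is the highest of its group and replicate 2 the lowest.

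Between the copies, Pearson's r over the 12 libraries was 0.88 to 0.99, with a median of 0.94 over 28 pairs. After group means were subtracted it was 0.71 to 0.97, with a median of 0.83. These are descriptions: libraries share depth and composition, and near-identical copies can share reads. The genes outside the set that were most like the mean of the copies were Gm12800 and Gatm (r = 0.979 for both), Gm6189, Gm8300, Gm2016, Gm2046, Zscan4c, Gm2075, Zscan4-ps2 and Zscan4b. Gatm encodes an enzyme of creatine synthesis. With group means subtracted, Zscan4c (r = 0.958), Zscan4f, Zscan4-ps2, Gm6189 and Zscan4b led, before Gm12800, Zscan4e, BC061212, Gm4782 and Gm8038.

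Of 30 other 2-cell-stage genes tested, 13 fell in 2i control relative to serum control cells and 0 rose, with a median log2 change of −1.82 beside −0.05 for all genes. Zscan4f, Zscan4-ps2, Zscan4c and Gm2016 had the largest changes, −5.49, −5.45, −5.33 and −5.10. In 2i, 2 of the 30 rose with the shRNA, where 1.21% of all genes rose. They were Gm2016, a neighbour of Gm5662, by 3.53 (SE 0.74, limma adjusted p = 0.0257) and Cml2, of the camello family of acetyltransferase-like genes, by 2.03 (SE 0.34, limma adjusted p = 0.00501). In serum Cml2 alone rose, by 2.14 (SE 0.34, limma adjusted p = 0.0059), where 0.601% of all genes rose. The 30 genes had a median change of 1.13 in 2i and 0.09 in serum. In 2i knockdown against serum knockdown cells, Zscan4e fell (log2 change −2.79, SE 0.72, limma adjusted p = 0.0445), and Pramel6 rose (log2 change 2.20, SE 0.42, limma adjusted p = 0.00868), opposite in sign to the copies.

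Of 12 known activators of the 2-cell programme tested, 5 fell in 2i control relative to serum control cells, where 1.88% of all genes fell. They were Zscan4c, Zscan4d and Zscan4f, which the list above also holds, and Dppa2 (−2.50, SE 0.46, limma adjusted p = 0.00769) and Dppa4 (−1.48, SE 0.29, limma adjusted p = 0.0114). Dux, also among the 12, did not pass (−1.04, SE 0.43, limma adjusted p = 0.221). Dppa2 and Dppa4 were also lower in 2i knockdown than in serum knockdown cells, with log2 changes of −1.83 (SE 0.46, limma adjusted p = 0.0407) and −1.19 (SE 0.29, limma adjusted p = 0.0358). None of the 12 passed with the shRNA in either medium. Among 32 known repressors tested, Setdb1 alone passed with the shRNA, and none passed between the media in either cell type, which does not show that their levels were alike.

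Widely expressed genes of initiation factors and deubiquitinases, listed for comparison with the copies, did not pass anywhere. The list held 12 genes. Among them were the initiation factor genes Eif1a, Eif1ax, Eif1 and Eif1b and the deubiquitinase genes Usp7, Usp9x and Usp22. In 2i control against serum control cells their median log2 change was −0.19, with a range of −0.55 to 0.38. With the shRNA in 2i the median was −0.04, and in serum −0.08.

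Markers of other cell types were read beside these results. The 10 fibroblast markers summed to 2953 to 5881 normalised reads in the 2i knockdown, 4831 to 6402 in the 2i control, 1608 to 3823 in the serum knockdown and 939 to 2272 in the serum control, with 0, 2, 3 and 4 markers at 0. The 8 extraembryonic endoderm markers summed to 5.53 to 113 in the 2i knockdown, 33.9 to 64.6 in the 2i control, 70.0 to 211 in the serum knockdown and 126 to 173 in the serum control. The 8 male germ cell markers summed to 7701 to 26542 in the 2i knockdown, 1439 to 4744 in the 2i control, 6271 to 19077 in the serum knockdown and 2449 to 4895 in the serum control. The 8 trophoblast markers summed to 490 to 857, 350 to 813, 246 to 784 and 218 to 560 in those groups in the same order, and Elf5 was at 0 in all. In control cells the fibroblast sums were higher and the endoderm sums lower in 2i than in serum without overlap, while in knockdown cells the ranges overlapped. Germ cell sums were higher with the shRNA without overlap in both media. Whether cells of these types were present was not tested, nor was any part of theirs in the results on the copies.

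Gm5662 and BB287469 lie in 1 stretch of chromosome 12 between Snw1, a splicing factor gene, and Adck1, a mitochondrial kinase gene. Of the 14 other genes of the stretch in the table, flanks included, 8 were tested. Of these, Gm8300, Gm4027, Gm2016, Gm2046 and Gm2075 fell in 2i control relative to serum control cells, with log2 changes between −2.93 and −5.10. Snw1 changed by −0.09 (limma adjusted p = 0.931), Adck1 by 0.07 (adjusted p = 0.957) and Gm6190 by 0.43 (adjusted p = 0.623). With the shRNA in 2i, Gm2016 alone of the 8 passed. Gm16381 had 9.27 normalised reads on average in 2i knockdown cells and 0 in 2i control cells, and Gm2001 had 6.13 and 0, below the filter.

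**Figure D4:**
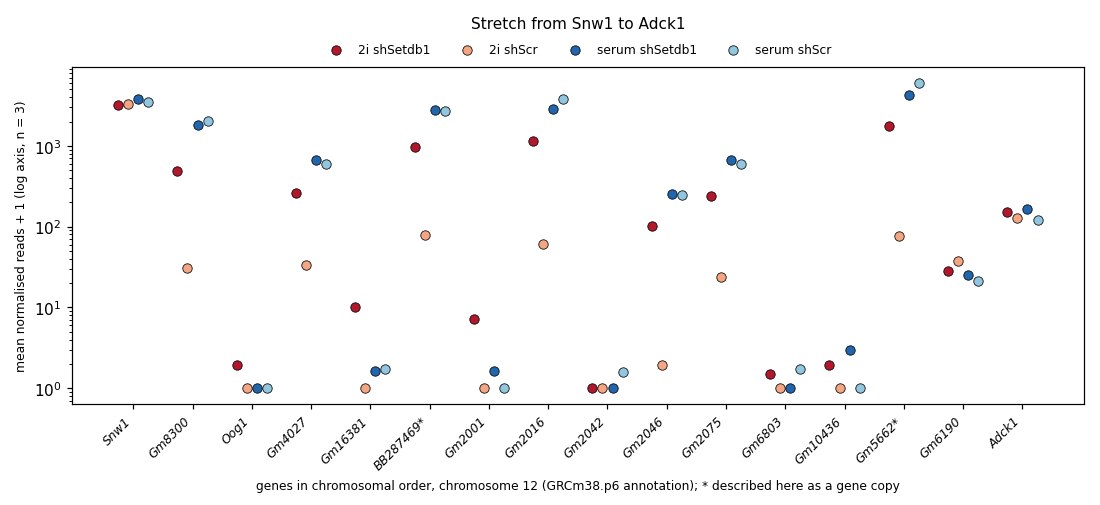
Mean normalised reads plus 1 (log axis, n = 3) of the 16 genes from Snw1 to Adck1, in chromosomal order, in the 4 groups. The flanking genes Snw1 and Adck1 are at like levels in all groups, while the 7 tested genes that change between the media are lowest in 2i control cells.

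The 5 Usp17l-type genes lie on chromosome 7 among 81 other genes of the table, of which 62 are olfactory receptor genes. No read was counted for 68 of the 81, including 60 olfactory receptor genes. The 7 other genes that passed the filter were Trim genes. Of these, Trim12c was higher in 2i control than in serum control cells (log2 change 1.85, limma adjusted p = 0.0467), opposite to the copies. Trim30a averaged 63.9 normalised reads in 2i knockdown cells and 2.30 in 2i control cells (log2 change 1.69, limma adjusted p = 0.114), and Trim6 averaged 2414 and 2831.

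How reads that match several copies were counted is not given in the sources used here, nor is the use of strand in counting. Of the 50-base windows of BB287469 transcripts, 96.6% also occur in transcripts of other genes, 94.3% in those of Gm4027. The share was 77.9% for Gm5662, most often with Gm2016, 51.1% for Dub2a and 44.7% for Usp17l5, chiefly with each other. It was 29.8% for Dub3, 21.4% for Dub1a and 19.3% for Dub1. Values of the single Eif1a-like genes, and of Dub2a and Usp17l5, are therefore uncertain. Tmem92-ps shared 1.93% of its windows.

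**Figure D5:**
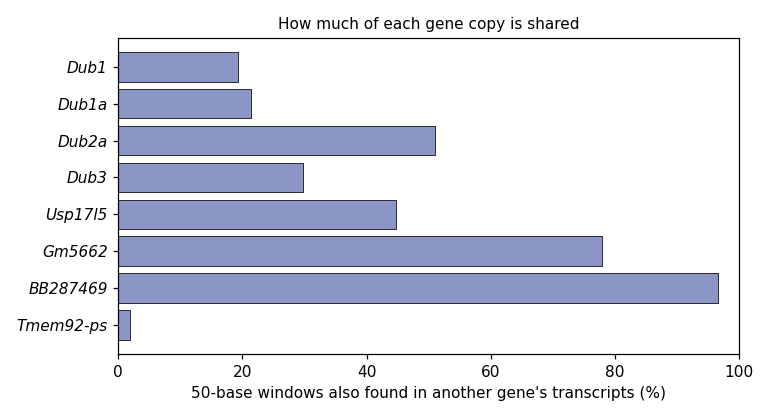
Share of the 50-base windows in the annotated transcripts of each gene copy that also occur in a transcript of another gene (GENCODE transcripts of GRCm38). The bars run from 1.93% for Tmem92-ps to 96.6% for BB287469.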

How the data were processed

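The 12 libraries were directional and rRNA-depleted, per the labels' protocols. The authors used Trim Galore 0.3.3, TopHat2 2.0.9 and DESeq2 with mm9, per the submitters' processing notes. The authors deposited variance-stabilised log2 values, 1 table of 26061 genes and 1 of 1217 repeat families. The counting tool and annotation were not given in the sources used here.

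The transformation was inverted, and 100% of values came out whole within 0.01 of a read. Normalised reads are recovered reads divided by the library's size factor. Folds are ratios of group means of normalised reads.

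Differences of the deposited log2 values were fitted in limma 3.58.1 (R 4.3.3) with 1 mean per group over all 12 libraries, a mean-variance trend and 8 residual degrees of freedom. Genes with a mean at least 0.5 above the lowest value (4.4522) were kept. Tests were two-sided, with Benjamini-Hochberg adjustment over all 14487 genes and a threshold of 0.05. The fit was tested on simulated data. The 5 comparisons were knockdown against control in each medium, the difference of these changes, and 2i against serum in control and in knockdown cells.

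The sample titles give replicate numbers and state no pairing. Deviations of same-numbered knockdown and control libraries correlated at 0.58, 0.23 and 0.51 in serum and at 0.46, 0.06 and 0.52 in 2i. Same-numbered 2i control and serum knockdown libraries, unlike in medium and shRNA, correlated at 0.25, 0.3 and 0.46. The other same-numbered libraries of unlike media correlated at −0.18 to 0.5. Differently numbered libraries were not compared, so these correlations do not show which samples were paired. A replicate block changed no call on a gene copy in serum.

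Promoters are from RefSeq (GRCm38.p6) and transcripts from GENCODE (GRCm38), of another build than mm9. Identity is matches over aligned columns (edlib). Older symbols were matched to current ones by RefSeq synonyms, so Dub1, Dub1a, Dub2a, Dub3 and Usp17l5 are Usp17la, Usp17lb, Usp17ld, Usp17le and Usp17lc. Named genes were the 10 copies, Setdb1, the 10 genes most correlated with the copies' mean before and after subtracting group means, up to 4 genes of each list that passed in a comparison, by size of change, MERVL-int and MT2_Mm. Genes of the 2 chromosomal stretches were added after values were seen. Also outside this rule were Dux, MT2C_Mm, the marker Elf5 and the initiation factor and deubiquitinase genes named for comparison. The copies and lists were chosen with earlier results of these data known.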

Additional observations from a re-analysis of the deposited data

How the results depend on the processing

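In 2i knockdown against 2i control 2 of 8 gene copies were called, and 1.27% of all genes in either direction. The count of copies became 6 with the replicate number as a block within each medium, where 2.93% of genes were called. It was 3 with a replicate block over all libraries (2.22% of genes) and 5 with the structural RNA share as a covariate (2.6%). It was 0 with voom on recovered reads (0.745%) and 0 without the filter on low values (0.399%). Leaving out 1 library at a time gave 0 to 6 (0.683 to 1.75% of genes). The count for 2i control against serum control was 8 of 8, where 3.62% of genes were called in either direction. It became 3 with voom (2.44% of genes) and 1 without the filter, which tests 26061 genes (0.549%). It was 5 to 8 leaving out 1 library (1.18 to 5.34%). For the difference of the knockdown changes (0) it became 1 with the block within each medium, Gm5662, where 0.0138% of genes were called. It stayed 0 leaving out 1 library. For 2i knockdown against serum knockdown it was 0, where 3.75% of genes were called in either direction. It became 1 with the replicate block over all libraries, Dub3, where 10.9% of genes were called. Leaving out 1 library gave 0 to 1, the 1 being Dub3 without 2i knockdown replicate 1, where 10.5% of genes were called. In serum knockdown against control it stayed 0 in every alternative run. The cause of these changes was not tested.

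In serum 5 log2 changes changed sign when 1 library was left out, none of them called. Those of Dub1 ran from −0.08 to 0.45, Dub2a from −0.63 to 0.24, Gm5662 from −1.14 to 0.30, BB287469 from −0.70 to 0.74 and Tmem92-ps from −0.62 to 0.25. Fitting only the 6 libraries compared kept 2 calls in 2i knockdown against control, Gm5662 and BB287469, without Dub1a. In that fit 0.607% of all genes were called. Median centring, quantile normalisation, a stricter filter and a fit without the variance trend changed none of the counts. The block within each medium cannot bear on the medium comparisons and was not run for them. With the replicate block over all libraries MT2_Mm passed in 2i knockdown against control (limma adjusted p = 0.0211). Whether replicate numbers pair samples in either medium is not known, so a call gained or lost under the block is no statement on the size of an effect. Depth limits the 2i control values, where 6 of 8 copies had 20 reads or fewer in the group.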
